A study of Mus musculus with 6 samples.

Results

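To ask whether canonical Wnt signaling genes differ in kidney ECs after endothelial deletion of *Rbpj*, the nuclear mediator of Notch signaling, 10 genes of the pathway were read from the deposited count table by their gene names: *Lef1*, *Tcf7*, *Axin2*, *Nkd1*, *Apcdd1*, *Rspo3*, *Fzd4*, *Fzd6*, *Lrp6* and *Ctnnb1*. The table lists 55401 genes, and all 10 were found once. All 10 also passed edgeR's filter on low counts, which kept 18438 genes for testing.
Kidney cells positive for CD31 and negative for CD45 were sorted as ECs from 3 RbpjΔEC mice (Cre +/-; Rbpjf/f) and 3 Cre-negative littermates (CTRL, Cre -/-; Rbpjf/f), with 1 library per mouse. Both groups carried the floxed *Rbpj* allele and received 5 intraperitoneal injections of 1.5 mg tamoxifen at 8 weeks of age. Kidneys were taken 12 weeks after induction, and the labels give an age of 21 weeks for every mouse. The inducible Cre is driven by the endothelial *Cdh5* promoter, and the methods describe only male mice. Since CTRL mice carried no Cre, the presence of Cre and the loss of *Rbpj* cannot be told apart.

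In canonical Wnt signaling, Wnt ligands or Norrin bind Frizzled receptors together with Lrp5 or Lrp6. Dishevelled proteins then restrain the complex of Axin, Apc and Gsk3 that destroys β-catenin, so that β-catenin reaches the nucleus and acts with Tcf and Lef factors on target genes. Among these targets are inhibitors of the pathway itself, such as *Axin2* and *Nkd1*, whose transcripts are used as readouts of its activity. In endothelium the pathway is best known from brain and retina, where Norrin and Wnt ligands acting through Fzd4 form and keep the blood-brain and blood-retina barriers.

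Total counts on genes lay between 39649171 and 47726850 per library. A count of 3, taken as the floor of detection, was between 0.0633 and 0.0748 CPM, the counts of a gene per 1000000 counts of its library, scaled here with edgeR's TMM factors. In CTRL 1, 33764 genes had a count, while the other 5 libraries had between 25629 and 26785 such genes. *Rbpj* counted over the whole gene was 28.1, 29.7 and 29.8 CPM in the CTRL libraries 1 to 3, and 28.8, 26.1 and 29.6 CPM in the RbpjΔEC libraries 1 to 3. These overlapping values do not show the floxed part alone. The endothelial label was met by the data, with 14 pan-endothelial genes at a high summed level, led by *Kdr*, the main VEGF receptor. Their sum was 27294 to 30111 CPM in CTRL and, without overlap, 24935 to 25111 CPM in RbpjΔEC.

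*Lef1* is itself both a nuclear factor and a target of the pathway, and its starts were searched for letters of the motifs that bear on this design. RefSeq promoters on GRCm38.p6 ran from 250 bases before to 50 bases after a transcription start. Those of 6 of the 10 genes were searched (*Lef1*, *Tcf7*, *Axin2*, *Nkd1*, *Fzd4* and *Ctnnb1*), with 11 starts among them. No promoter was held for *Rspo3*, *Fzd6* and *Lrp6*, and *Apcdd1* was left out of the search. Both strands were searched for 4 forms of the Tcf and Lef motif, which read CTTTGAA for the first form, CTTTGAT for the next form, CTTTGTA for another form, and CTTTGTT for the last form. They were also searched for the core of the Rbpj motif, TGGGAA. Of the 11 promoters, 3 held the Rbpj letters and 1 held a Tcf and Lef form (CTTTGTA, which reads TACAAAG on the plus strand), all at starts of *Lef1* on chromosome 3, and no match overlapped another motif. Windows of 30 bases are shown because they hold these matches, written on the plus strand, which is the gene's strand, with the matching letters in capitals.
Lef1, Rbpj letters 38 bases after the start at 131110297 (chr3:131110317-131110346): cgcggcgaggagaagcggTGGGAAggcgca
Lef1, Rbpj letters 43 bases after the start at 131112791 (chr3:131112811-131112840): gatggcaggggtgagtacgcatcTGGGAAg
Lef1, Tcf and Lef letters on the opposite strand 147 bases before the start at 131156294 (chr3:131156135-131156164): acaacctcagaaTACAAAGtaggattgcat
The first match also lies in the promoter of a neighbouring start, 12 bases after it. Its window ends before the first base of *Lef1* in GENCODE M21 (131110471), and the other windows lie within the bounds of the gene. Of all 32851 promoters in the table, 25.6% hold the Rbpj letters and 16.9% hold the Tcf and Lef letters, so that a match is common. A match describes these letters and no binding was measured.

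Compared per kb of exonic length (GENCODE M21 on GRCm38), the 10 transcripts spanned a wide range in CTRL, from *Ctnnb1* with 135.0 ± 0.667 CPM per kb (SD, n = 3) to *Rspo3* with 0.119 ± 0.0637 CPM per kb (SD, n = 3). *Fzd4* came next to *Ctnnb1* with 100.9 ± 14.6 CPM per kb and then *Lrp6* with 20.7 ± 0.692 CPM per kb (SD, n = 3 each). The feedback inhibitors *Nkd1* (4.40 ± 0.694 CPM per kb) and *Axin2* (3.85 ± 0.461 CPM per kb) followed. *Lef1* had 2.06 ± 0.612, *Tcf7* 1.36 ± 0.256, *Fzd6* 1.22 ± 0.290 and *Apcdd1* 0.210 ± 0.0277 CPM per kb (SD, n = 3 each). Within the CTRL libraries, the values per kb of *Nkd1* and *Axin2* overlapped, as did those of *Lef1* and *Tcf7*, of *Tcf7* and *Fzd6*, and of *Apcdd1* and *Rspo3*. Every other pair of neighbours in this order was separated in all 3 CTRL libraries. In RbpjΔEC the order of the means was the same except that *Fzd6* (0.937 ± 0.132 CPM per kb) stood above *Tcf7* (0.822 ± 0.106 CPM per kb; SD, n = 3 each), with overlapping values.

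**Figure D1:**
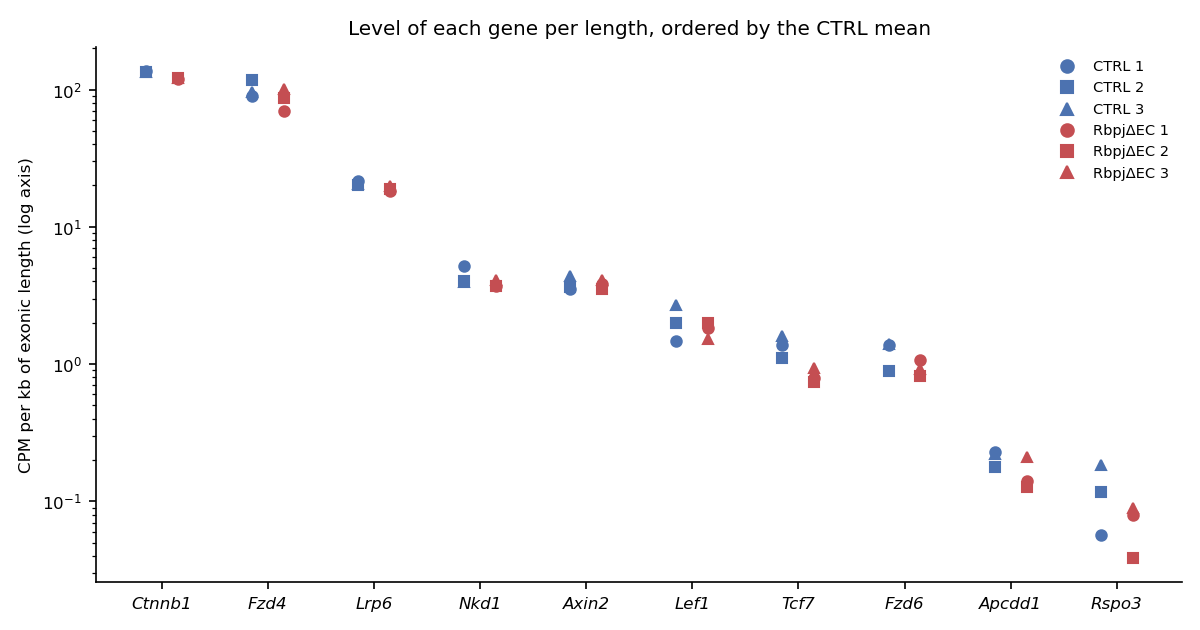
Level of each gene as CPM per kb of exonic length (log axis), 1 point per library, with CTRL in blue and RbpjΔEC in red. The order runs from *Ctnnb1* at 135.0 CPM per kb to *Rspo3* at 0.119 CPM per kb in the CTRL mean.

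Between the genotypes, 0 of the 10 genes passed an adjusted p of 0.05 after Benjamini-Hochberg adjustment over all tested genes (quasi-likelihood test of edgeR), where 0.559% of all tested genes were called lower and 0.575% higher in RbpjΔEC. DESeq2's Wald test also called 0, and over 38324 genes it called 0.84% lower and 0.684% higher. Those genes are a wider set than the 18438 behind the edgeR shares, since low counts were kept. The edgeR shares rest on 209 calls, which numbered from 21 (without RbpjΔEC 1) to 700 (without CTRL 2) when 1 library was left out and 1552 when libraries were scaled to pan-endothelial genes. Before adjustment, 2 of the 10 (*Tcf7* and *Ctnnb1*) were lower with p under 0.05 and 0 were higher, against 8.62% and 8.88% of all tested genes. The groups did not overlap for 3 of the 10 (*Tcf7*, *Ctnnb1* and *Lrp6*), each lower in RbpjΔEC, and for 0 higher. In all tested genes this held for 11.6% (lower) and 11.4% (higher). All 10 log2 fold changes lay below 0, with a median of -0.23 against 0.01 over all tested genes, of which 48.9% were below 0. When the libraries were scaled to the summed counts of the 14 pan-endothelial genes, the log2 fold changes of *Axin2* (0.20), *Lrp6* (0.088), *Ctnnb1* (0.051) and *Nkd1* (0.017) were above 0. That scaling changes only the factor of each library, so it shifts all genes by a similar amount. It moved the median of all tested genes to 0.22, and the 10 log2 fold changes lay below it, the highest being 0.20 for *Axin2*. Their place against the median is therefore no separate check.

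**Figure D2:**
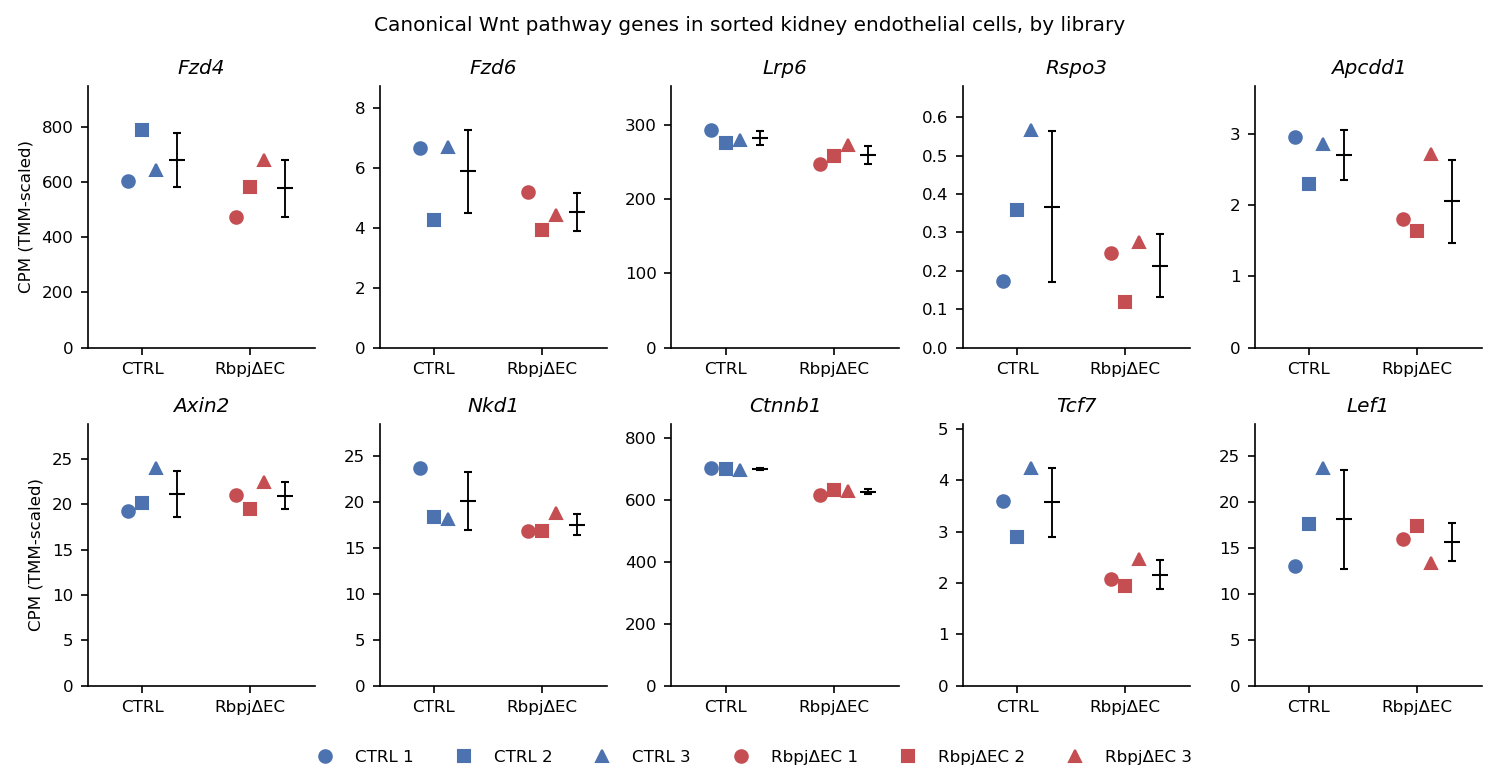
TMM-scaled CPM of each gene by library, with every vertical axis starting at 0; black bars give the mean ± SD of the 3 libraries. The groups are apart for *Tcf7*, *Ctnnb1* and *Lrp6* and overlap for the other 7 genes.

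Of the receptors, *Fzd4* (ENSMUSG00000049791.4, chromosome 7 from 89404355 to 89413134), the receptor for Norrin, had 602, 789 and 644 CPM in CTRL 1 to 3. In RbpjΔEC 1 to 3 it had 471, 582 and 678 CPM. CTRL 2 was the highest and RbpjΔEC 1 the lowest of the 6, and the groups overlapped. *Fzd4* had a log2 fold change of -0.23 (95% confidence interval -0.57 to 0.10, adjusted p = 0.446 from the edgeR test). It was -0.12 without CTRL 2, -0.11 without RbpjΔEC 1, -0.37 without RbpjΔEC 3 and -0.029 under pan-endothelial scaling.
*Fzd6* (ENSMUSG00000022297.15), a Frizzled receptor known for planar polarity, had 6.67, 4.26 and 6.70 CPM in CTRL 1 to 3, against 5.19, 3.93 and 4.41 CPM in RbpjΔEC 1 to 3. CTRL 2 lay among the RbpjΔEC values, below RbpjΔEC 1 and RbpjΔEC 3. Its log2 fold change was -0.38 (95% confidence interval -0.85 to 0.09, adjusted p = 0.386 from the edgeR test), with -0.57 without CTRL 2 and -0.16 under pan-endothelial scaling.
*Lrp6* (ENSMUSG00000030201.15, chromosome 6 from 134446476 to 134566965) encodes the co-receptor that is phosphorylated when a Wnt ligand binds. It had 294, 276 and 279 CPM in the CTRL libraries 1 to 3, and 248, 259 and 272 CPM in the RbpjΔEC libraries 1 to 3. Each RbpjΔEC value was below each CTRL value, though RbpjΔEC 3 and CTRL 2 were close, and the 2-sided p was 0.1 by an exact permutation test, which cannot give less with 3 libraries a group. For *Lrp6* the log2 fold change was -0.13 (95% confidence interval -0.27 to 0.02, adjusted p = 0.366 from the edgeR test), and 0.088 under pan-endothelial scaling.

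*Rspo3* (ENSMUSG00000019880.10), a secreted R-spondin that raises Wnt receptor levels at the cell surface, was near the limit of detection. It had 7, 17 and 24 counts in CTRL 1 to 3, against 11, 5 and 11 counts in RbpjΔEC 1 to 3, or between 0.119 and 0.568 CPM, and the groups overlapped. *Rspo3* had a log2 fold change of -0.78 with a 95% confidence interval from -2.12 to 0.55 (adjusted p = 0.543 from the edgeR test), and it was -0.33 without CTRL 3 and -0.50 without RbpjΔEC 2.
*Apcdd1* (ENSMUSG00000071847.13), a membrane-bound inhibitor of Wnt ligands and a target of the pathway, had 2.96, 2.30 and 2.86 CPM in CTRL 1 to 3. In RbpjΔEC 1 to 3 it had 1.81, 1.64 and 2.72 CPM. RbpjΔEC 3 lay inside the CTRL range and the other RbpjΔEC libraries lay below it. Its log2 fold change was -0.40 (95% confidence interval -0.98 to 0.19, adjusted p = 0.470 from the edgeR test). It was -0.65 without RbpjΔEC 3, -0.26 without RbpjΔEC 2 and -0.18 under pan-endothelial scaling.

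*Axin2* (ENSMUSG00000000142.15, chromosome 11 from 108920349 to 108950783), the scaffold of the destruction complex that β-catenin itself switches on, had the smallest log2 fold change of the 10 under TMM scaling but not under pan-endothelial scaling. It had 19.3, 20.1 and 24.1 CPM in the CTRL libraries 1 to 3, and 21.0, 19.5 and 22.5 CPM in the RbpjΔEC libraries 1 to 3, so that all 3 RbpjΔEC libraries lay inside the CTRL range. *Axin2* had a log2 fold change of -0.01 with a 95% confidence interval from -0.25 to 0.22 (adjusted p = 0.965 from the edgeR test). On the linear scale this interval runs from 0.841 to 1.17 times the CTRL level. Pan-endothelial scaling gave 0.20 with an interval from -0.04 to 0.44, and neither scaling gave a call.
*Nkd1* (ENSMUSG00000031661.12, chromosome 8 from 88521354 to 88594884) encodes a protein that binds Dishevelled and dampens the signal. It had 23.7, 18.3 and 18.1 CPM in CTRL 1 to 3, against 16.8, 16.8 and 18.8 CPM in RbpjΔEC 1 to 3. CTRL 1 was above the other 5 libraries, which lay between 16.8 and 18.8 CPM. *Nkd1* had a log2 fold change of -0.20 (95% confidence interval -0.46 to 0.06, adjusted p = 0.420 from the edgeR test) and -0.06 without CTRL 1.

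*Ctnnb1* (ENSMUSG00000006932.17, chromosome 9 from 120929216 to 120960507) encodes β-catenin, which serves both Wnt signaling and the cadherin junctions between ECs. It had 705, 699 and 699 CPM in the CTRL libraries 1 to 3, and 617, 634 and 629 CPM in the RbpjΔEC libraries 1 to 3. The groups were apart, with an SD of 3.46 CPM within CTRL and 8.39 CPM within RbpjΔEC (2-sided p = 0.1, again the lowest that an exact permutation test can reach here). For *Ctnnb1* the log2 fold change was -0.16 (standard error 0.0649, unadjusted p = 0.0285 and adjusted p = 0.225 from the edgeR test). When each library was left out in turn, *Ctnnb1* stayed between -0.17 and -0.15 on the log2 scale. Of the 14 pan-endothelial genes edgeR called 0. DESeq2 called 4 of the 14 lower, where it called 0.84% of its 38324 genes lower, low counts included. Without overlap between the groups, 6 of the 14 were lower in RbpjΔEC (11.6% of all tested genes). The median log2 fold change of the 14 was -0.18. When scaled to their sum, *Ctnnb1* was at 0.051 (95% confidence interval -0.12 to 0.22).

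*Tcf7* (ENSMUSG00000000782.16, chromosome 11 from 52252371 to 52283014), a nuclear partner of β-catenin best known from T cells, had the smallest p of the 10. CTRL 1 to 3 held 144, 137 and 179 counts, and RbpjΔEC 1 to 3 held 93, 81 and 99 counts. These were 3.58, 2.89 and 4.24 CPM in CTRL and 2.07, 1.93 and 2.47 CPM in RbpjΔEC. No RbpjΔEC library reached the lowest CTRL library, CTRL 2 (2-sided p = 0.1 by exact permutation, as low as the design can go). *Tcf7* had a log2 fold change of -0.73 (standard error 0.237, 95% confidence interval -1.24 to -0.21), or 0.604 times the CTRL level. Its unadjusted p was 0.00991 and its adjusted p was 0.145 in the edgeR test. Over the 12 other settings and left-out libraries the adjusted p of *Tcf7* from these tests lay between 0.0804 and 0.391, and its log2 fold change between -0.87 and -0.51.
*Lef1* (ENSMUSG00000027985.14, chromosome 3 from 131110471 to 131224356), the sister factor of *Tcf7*, had 13.0, 17.6 and 23.7 CPM in CTRL 1 to 3. In RbpjΔEC 1 to 3 it had 16.0, 17.4 and 13.3 CPM. All 3 RbpjΔEC libraries lay inside the CTRL range. The CTRL libraries spread more widely than the difference between the groups, with an SD of 5.37 CPM against 2.06 CPM in RbpjΔEC. The log2 fold change of *Lef1* was -0.22 (95% confidence interval -0.69 to 0.25, adjusted p = 0.631 from the edgeR test), and it changed sign to 0.023 without CTRL 3. It was -0.41 without CTRL 1 and near 0 under pan-endothelial scaling. In bulk ECs, fewer cells that express a gene and less RNA of it per cell cannot be told apart.
Since T cells express both factors, T cell markers were read beside them, although the sort kept only cells negative for CD45, which T cells carry. *Cd3d* and *Cd3e*, which define T cells, were at 0 counts in all 6 libraries. All 10 markers of that list summed to between 4.16 and 5.55 CPM in CTRL and between 5.06 and 8.91 CPM in RbpjΔEC, most of it *Lck*. Without *Lck* the other 9 summed to 1.12, 0.274 and 0.970 CPM in CTRL 1 to 3, against 0.245, 0.191 and 0.299 CPM in RbpjΔEC 1 to 3. The sum without *Lck* thus overlapped between the groups and had a lower mean in RbpjΔEC, and its part in the *Tcf7* and *Lef1* values was not tested.

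**Figure D3:**
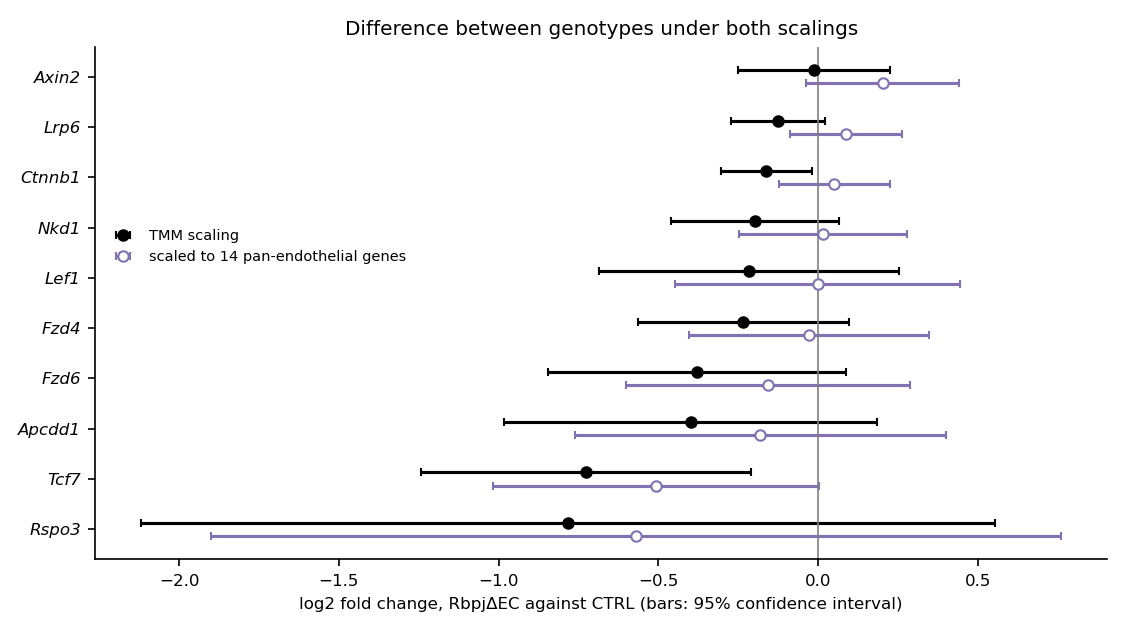
Log2 fold change of each gene, RbpjΔEC against CTRL, with its 95% confidence interval, under TMM scaling (filled) and under scaling to the 14 pan-endothelial genes (open). Under TMM only the intervals of *Tcf7* and *Ctnnb1* leave out 0, and under pan-endothelial scaling every interval holds 0.

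Reads of overlapping genes could enter these values, because the strand setting of the counting is not given in the sources used here. Antisense to *Rspo3*, which itself had 5 to 24 counts, *Gm48159* had 0 to 4 counts, and on the same strand *Gm20276* also had 0 to 4. At *Tcf7*, with 81 to 179 counts, the antisense gene *A630014C17Rik* had 0 to 10 counts, and *Gm26551*, which overlaps *Tcf7* on the same strand, has no count here. *Gm43352* (antisense, 10 to 32 counts) and *Gm42449* (same strand, 9 to 41) overlap *Lef1*, with 521 to 1001 counts. *Gm45496* (same strand, 22 to 49 counts) overlaps *Nkd1*, with 705 to 952 counts, and *Ulk4* (antisense, 39 to 103 counts) overlaps *Ctnnb1*, with 25236 to 33118 counts. The part of these genes in the values was not tested.

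To place the 10 genes in their pathway, 110 genes in 9 lists by role were read from the same fit, with the 10 included and some genes in more than 1 list. Of the 110, 80 were tested and 2 (*Wnt8a* and *Foxf2*) had no count in any library. Of the 80, 2 were called higher and 1 lower in RbpjΔEC at an adjusted p under 0.05 (0.575% and 0.559% over all tested genes), and 53 of the 80 had a log2 fold change below 0. Their median was -0.10, against 0.01 over all tested genes, and under pan-endothelial scaling it was 0.12, against 0.22. That scaling called 7 of them higher and 1 lower, where 1552 of all 18438 tested genes were called. With p under 0.05 before adjustment, 11 of the 80 were lower and 5 higher (8.62% and 8.88% over all tested genes). The groups were apart for 12 lower and 7 higher genes (11.6% and 11.4% over all tested genes). With the 10 genes left out, the 70 other tested genes had a median of -0.06.

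*Fzd5* and *Dvl2* rose and *Dkk2* fell. *Dkk2* (ENSMUSG00000028031.6, chromosome 3 from 132085292 to 132180304), a secreted protein that binds Lrp6 and can restrain the pathway, had 232, 230 and 210 CPM in CTRL 1 to 3, against 157, 116 and 138 CPM in RbpjΔEC 1 to 3. The groups were far apart. *Dkk2* had a log2 fold change of -0.71 with a standard error of 0.101 (edgeR, adjusted p = 0.0131), or 0.610 times the CTRL level. Without CTRL 3 the log2 fold change of *Dkk2* was -0.76 with an adjusted p of 0.0563 in edgeR, and calls over all genes numbered 24. Scaled to the pan-endothelial genes, *Dkk2* still passed, with a log2 fold change of -0.50 (adjusted p = 0.0268 from the edgeR test).
Of the genes that rose, *Fzd5* (ENSMUSG00000045005.9, chromosome 1 from 64730558 to 64737751), a Frizzled receptor, had 29.0, 30.3 and 28.2 CPM in the CTRL libraries 1 to 3, and 39.3, 42.7 and 36.2 CPM in the RbpjΔEC libraries 1 to 3. The log2 fold change of *Fzd5* was 0.43 with a standard error of 0.0874 (edgeR, adjusted p = 0.0419), while that of *Fzd4* was -0.23 without a call. *Dvl2* (ENSMUSG00000020888.16, chromosome 11 from 70000595 to 70012301), a Dishevelled protein that relays the signal from Frizzled, had 22.6, 25.9 and 25.3 CPM in CTRL 1 to 3, against 33.2, 36.8 and 34.7 CPM in RbpjΔEC 1 to 3. For both genes every RbpjΔEC library was above every CTRL library. For *Dvl2* the log2 fold change was 0.50 with a standard error of 0.0895 (edgeR, adjusted p = 0.0248). Neither *Fzd5* (adjusted p up to 0.168 from the edgeR test) nor *Dvl2* (up to 0.107) passed without CTRL 1, CTRL 3, RbpjΔEC 1 or RbpjΔEC 2, fits in which calls over all genes numbered 21 to 54. In those 4 fits the log2 fold change lay between 0.37 and 0.44 for *Fzd5* and between 0.44 and 0.54 for *Dvl2*.

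Within each role, the gene named for its level is the one with the highest mean CPM over all 6 libraries, which does not correct for length. The 20 ligand genes were low: 8 were tested, 0 were called, and *Wnt2*, the highest, had 3.34 to 3.83 CPM in CTRL and 2.72 to 2.99 CPM in RbpjΔEC. *Wls*, the carrier that brings Wnt ligands to the cell surface, had 99.9, 86.1 and 103.6 CPM in the CTRL libraries 1 to 3, and 68.8, 76.4 and 78.3 CPM in the RbpjΔEC libraries 1 to 3. Its log2 fold change was -0.37 (adjusted p = 0.0611 from the edgeR test), so *Wls* was just outside the threshold, while DESeq2 called it lower. Under pan-endothelial scaling the log2 fold change of *Wls* was -0.16 (adjusted p = 0.226 from the edgeR test). Of the 15 receptors and co-receptors, 12 were tested and 9 had a log2 fold change below 0; *Fzd5* was the only call, *Fzd4* was the highest, and the median was -0.16. Of the 9 genes of the R-spondin axis, 5 were tested and 0 called, with a median of -0.39. Its highest gene over both groups, the R-spondin receptor *Lgr4*, had 15.2 to 18.5 CPM in CTRL and 13.3 to 19.2 CPM in RbpjΔEC.
Of the 16 extracellular inhibitors, 9 were tested, 8 of them with a log2 fold change below 0, and only *Dkk2* was called. The median of -0.65 was the lowest of the 9 roles. *Sfrp1* and *Sfrp2*, secreted proteins that bind Wnt ligands, are named here after their values were seen. *Sfrp2* had 16.6, 12.2 and 14.3 CPM in CTRL 1 to 3, against 3.99, 1.98 and 8.50 CPM in RbpjΔEC 1 to 3, and its log2 fold change of -1.58 was not called (adjusted p = 0.225 from the edgeR test). *Sfrp1* had a log2 fold change of -1.38 (adjusted p = 0.232 from the edgeR test). Without RbpjΔEC 3, *Sfrp1*, *Sfrp2*, *Sost* and *Wls* were called lower beside *Dkk2*, and calls over all genes numbered 521. The 7 stromal markers summed to 7.34, 5.07 and 6.84 CPM in the CTRL libraries 1 to 3, and 1.54, 1.67 and 3.47 CPM in the RbpjΔEC libraries 1 to 3, with RbpjΔEC 3 the highest of its group as for *Sfrp2*. The 9 markers of the distal tubule and collecting duct summed to 425.6, 253.6 and 227.0 CPM in CTRL 1 to 3, against 109.5, 51.9 and 169.3 CPM in RbpjΔEC 1 to 3, and here too RbpjΔEC 3 was the highest and RbpjΔEC 2 the lowest of the group. The part of either list in these values was not tested.
The 20 cytoplasmic genes centred near 0 (median -0.03), with *Dvl2* the only call. The 15 nuclear genes did so too (14 tested, median 0.02, 0 called). The corepressor *Tle3*, with the highest CPM, had 195.7 to 220.7 CPM in CTRL and 202.0 to 205.3 CPM in RbpjΔEC. *Tcf7* had the lowest log2 fold change of the 14 tested nuclear genes. Of the 12 genes listed as feedback or growth targets, 5 of which are among the 10, 11 were tested and 0 called, with 2 log2 fold changes above 0, 9 below 0 and a median of -0.22. The cell cycle gene *Ccnd1*, the highest by CPM, had 137.4, 111.1 and 101.9 CPM in CTRL 1 to 3, against 90.4, 105.6 and 90.4 CPM in RbpjΔEC 1 to 3 (log2 fold change -0.29, adjusted p = 0.212 from the edgeR test). *Myc*, named after its values were seen, had 2.51 to 3.61 CPM in CTRL and 3.76 to 6.57 CPM in RbpjΔEC. Its log2 fold change of 0.72, the highest of the 80 tested pathway genes, was not called (adjusted p = 0.162 from the edgeR test). With no low-count filter, *Myc* was called higher and *Ccnd1* lower, among 1436 calls over all genes. Pan-endothelial scaling also called *Myc* higher, among 1552 calls. Of the 10 genes tied to Wnt signaling in the brain barrier, 7 were tested and 0 called. *Plvap*, which forms the diaphragms of fenestrae and is held down by Wnt signaling in brain endothelium, had 3594 to 4744 CPM in CTRL and 3559 to 4290 CPM in RbpjΔEC (log2 fold change -0.11, adjusted p = 0.658 from the edgeR test).

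**Figure D4:**
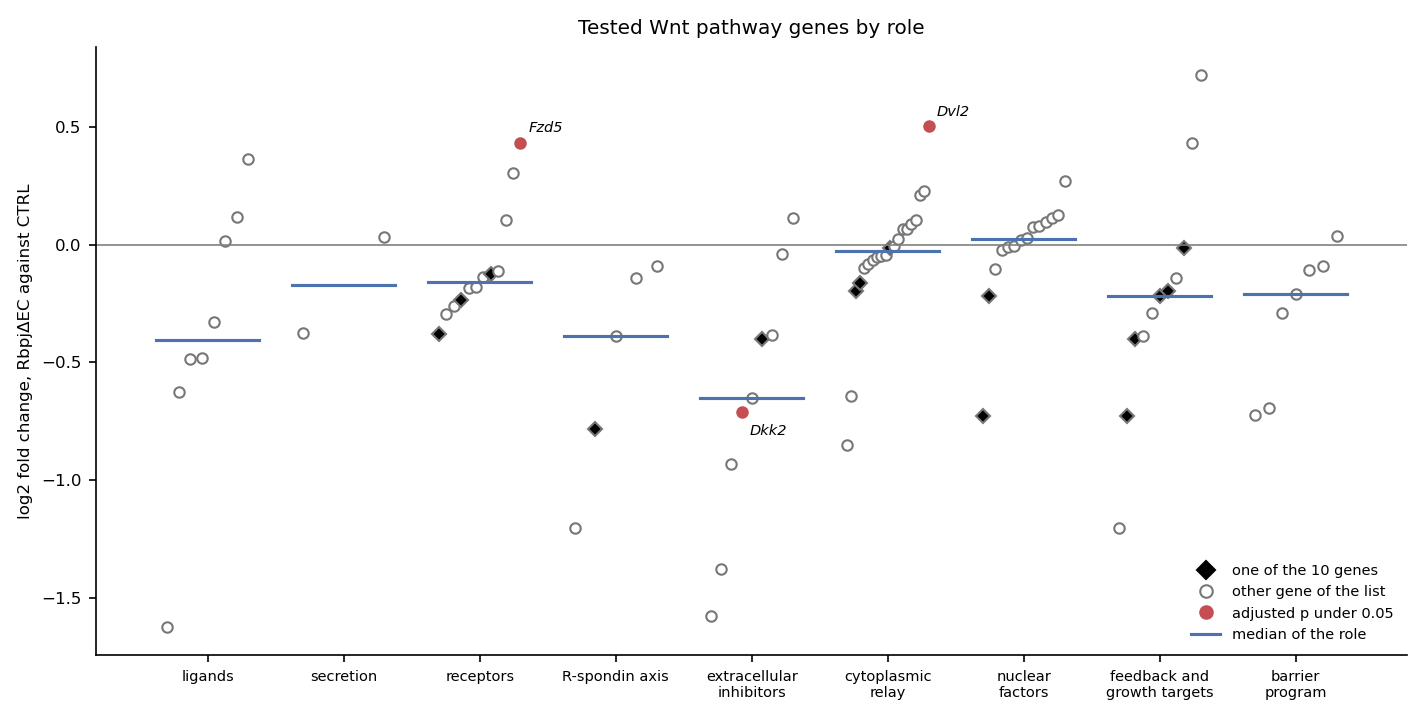
Log2 fold change, RbpjΔEC against CTRL, of every tested gene in the 9 lists by role, with the 10 genes as black diamonds and the 3 called genes in red. Blue lines give the median of each role, from -0.65 for the extracellular inhibitors to 0.02 for the nuclear factors.

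Markers of EC subtypes and of other cells also differed between the groups, and their part in the values above was not tested. The summed level of 8 glomerular EC markers, led by *Ehd3*, was 2263 ± 274 CPM in CTRL and 1459 ± 245 CPM in RbpjΔEC (SD, n = 3 each). Of these 8 genes 4 were called lower and 0 higher, and 7 were lower without overlap between the groups, where all tested genes had shares of 0.559% and 11.6%. *Sost*, a Wnt inhibitor, stands both in this list and among the extracellular inhibitors. The 11 mural markers, led by *Myh11* in CTRL and by *Abcc9* in RbpjΔEC, summed to 106.8 to 140.6 CPM in CTRL and 82.4 to 105.8 CPM in RbpjΔEC, with 3 of 10 tested genes called lower and 0 higher (7 lower and 1 higher with DESeq2). *Abcc9* and *Kcnj8* of this list, named after their values were seen, had all RbpjΔEC values above all CTRL values (log2 fold changes 1.03 and 0.93, not called by edgeR). The 9 markers of the distal tubule and collecting duct, led by *Slc12a3* over both groups and by *Slc12a1* in RbpjΔEC, summed to 227.0 to 425.6 CPM in CTRL and 51.9 to 169.3 CPM in RbpjΔEC, with 2 of the 9 called lower and 0 higher. The 8 proximal tubule markers, led by *Aqp1*, overlapped between the groups (206 to 454 CPM in CTRL and 204.5 to 488 CPM in RbpjΔEC). The 7 podocyte markers, led by *Podxl*, which ECs express as well, summed to 3229 to 3597 CPM in CTRL and 2649 to 2932 CPM in RbpjΔEC. The 8 macrophage markers summed to 14.2 to 16.1 CPM in CTRL and 23.8 to 28.5 CPM in RbpjΔEC. *Cd68* was the only marker of the 5 tested that was called (higher), with 9.96 ± 2.71 CPM in CTRL and 24.0 ± 1.70 CPM in RbpjΔEC (SD, n = 3 each); the other 4 had log2 fold changes below 0. The 7 B cell markers, led by *Cd79a*, summed to at most 1.34 CPM. Of the stromal markers, led by *Pdgfra*, 4 were tested, 1 was called lower and 0 higher. The podocyte (7 tested), proximal tubule (8 tested), T cell (2 tested) and B cell (1 tested) lists had 0 calls in edgeR, while DESeq2 called 1 podocyte marker higher and 1 lower and 1 B cell marker lower.

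**Figure D5:**
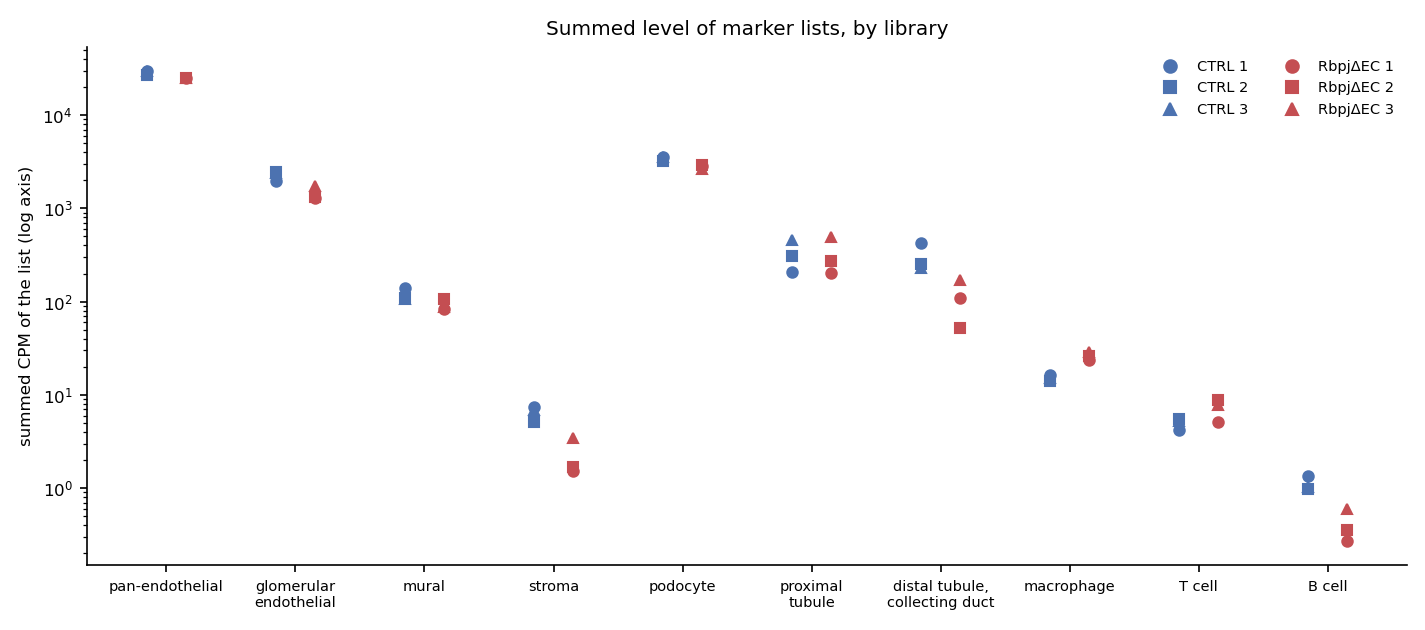
Summed CPM of each marker list by library (log axis), with CTRL in blue and RbpjΔEC in red. The pan-endothelial sum is the highest in every library, and the glomerular EC sum is lower in every RbpjΔEC library (1295 to 1740 CPM) than in every CTRL library (1948 to 2446 CPM).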

How the data were processed

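The submitters' processing notes name Trim Galore 0.6.4, STAR 2.6.1d and featureCounts from Subread 1.6.4, and the genome was GRCm38 with GENCODE M25. The authors deposited whole-number counts per gene, 1 column per mouse, not normalized. Groups came from the sample titles. The counts were then scaled by TMM, expressed as CPM and fitted over all tested genes with edgeR 4.0.16 in R 4.3.3 (filterByExpr, glmQLFit with robust estimation, glmQLFTest), with Benjamini-Hochberg adjustment and a threshold of 0.05. Standard errors came from the log2 fold change and the F value. Exact permutation tests used log2(CPM + 0.01) over 20 splits. The fit was also run on simulated counts, and the outcome is not given here. DESeq2 1.42.0 was an alternative.
The 10 genes and all lists were chosen with earlier results of these data known. Genes named were the 10, called genes of the pathway lists and the gene of each list with the highest mean CPM over all 6 libraries, apart from marked exceptions and defining T cell markers. The scaling to pan-endothelial genes was added after the data were seen. Lengths and coordinates came from GENCODE M21, whose gene models can differ from M25.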

Additional observations from a re-analysis of the deposited data

How the results depend on the processing

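None of the 10 genes was called under any of the 12 alternatives, which were 5 other settings (size factors of DESeq2, library size only, no low-count filter, DESeq2, replicate block), 6 left-out libraries and the added scaling to pan-endothelial genes. Of 120 repeated log2 fold changes, 112 kept their sign. The others were *Axin2* with library size only (0.031), *Axin2* (0.20), *Nkd1* (0.017), *Lrp6* (0.088) and *Ctnnb1* (0.051) under pan-endothelial scaling, and values without 1 library, where *Axin2* ranged from -0.078 to 0.086 and *Lef1* from -0.41 to 0.023. In the pathway lists, calls of higher genes numbered 2, but 4 with no low-count filter, 7 under pan-endothelial scaling and 0 to 3 without 1 library. Calls of lower genes numbered 1, but 4 with no low-count filter, 2 with DESeq2 and 0 to 5 without 1 library. Over all genes, calls went from 209 to 1436 with no low-count filter, 584 with DESeq2, 1552 under pan-endothelial scaling and 21 to 700 without 1 library. The median of these lists turned from -0.10 to 0.12 under pan-endothelial scaling, as the median of all genes moved to 0.22. The causes were not tested. With the replicate number as a block the pathway calls stayed at 2 higher and 1 lower, and calls over all genes numbered 344. Libraries with the same number shared only that number (correlations of their deviations 0.0231, 0.00916 and 0.00544). Depth limits *Rspo3* most, with at most 24 counts per library.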
